A study of Mus musculus with 29 samples.

Results

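Chemokine receptors are membrane receptors through which white blood cells sense gradients of chemokines, small secreted proteins that direct cells to and within tissues. A receptor that has bound its chemokine acts through heterotrimeric G proteins of the Gi class. It is phosphorylated by receptor kinases and then bound by arrestins. RGS proteins shorten the G protein signal, and small GTPases turn this signal into movement and adhesion. In the bone marrow, Cxcr4 is known for holding B cell precursors close to stromal cells that secrete Cxcl12, whereas Cxcr5 and Ccr7 guide mature lymphocytes to follicles and T cell zones of lymphoid organs. The 8 mouse genes *Cxcr4*, *Cxcr5*, *Cxcr3*, *Ccr2*, *Ccr6*, *Ccr7*, *Ccr9* and *Cx3cr1* are described here. They were chosen by gene symbol from tables that list 24732 entries for the wild-type and *Pax5*-/- libraries and 25588 entries for the Meox2-cre libraries, and all 8 genes had exactly 1 entry in either table.

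The RNA-seq data came from C57BL/6 bone marrow cells that were sorted by flow cytometry and not cultured. They comprised 3 libraries of wild-type pro-B cells, 2 of *Pax5*-/- cells, and a further 3 libraries labelled *Pax5*+/+ Meox2-cre. *Pax5* encodes the transcription factor that commits progenitors to the B cell lineage. The *Pax5*-/- cells lack it, and the comparison with wild-type cells asks which genes depend on Pax5. Meox2-cre is a Cre recombinase expressed from the *Meox2* locus, which acts in the early embryo. According to the labels, the Meox2-cre libraries came from pooled cells of *Pax5*+/+ mice, whereas the sample list of the study gives their genotype as *Pax5*(+/-) Meox2(Cre/+). Their mice were 3 weeks old, and the age of the mice of the other libraries is not given in the sources used here. Nothing in the labels says whether libraries of a group came from separate animals, so p-values measure the spread between these libraries only.

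The methods of the study define the sorted populations differently. Both populations were B220+Kit+, but wild-type pro-B cells were also gated as CD2-IgM-IgD- and Pax5-deficient progenitors as Ly6D+, among other markers, so genotype and sorted population cannot be told apart in any comparison below. *Ly6d*, which marks the gate of the progenitors, was at 190 to 270 TPM in wild-type and at 2258 and 3033 TPM in *Pax5*-/- libraries, and *Cd2* was at or below 2.14 TPM in these 5 libraries. TPM is the deposited unit, an abundance corrected for gene length and scaled to a sum of 1000000 in every library. *Pax5* mRNA was at 342, 386 and 391 TPM in wild-type, at 43.0 and 39.1 TPM in *Pax5*-/- and at 376 to 397 TPM in Meox2-cre libraries. It fell by 3.17 on the log2 scale in *Pax5*-/- cells (SE 0.11, limma adjusted p = 3.1e-06), and since the table gives 1 value per gene, the exons behind the remaining level cannot be told apart. TPM tables hold no counts, so how many reads lie behind a value is unknown. The commonest ratio between low values put *Pax5*-/- replicate 1 at 0.856 and replicate 2 at 1.54 times the depth of wild-type replicate 1, and the other wild-type libraries at 1.02 and 1.03 times.

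The 8 genes lie on 5 chromosomes of the mm9 build. *Cxcr4* is on the minus strand at chr1:130484776-130488870, *Cxcr5* on the minus strand at chr9:44319871-44334504, *Ccr7* on the minus strand at chr11:99005510-99016391, *Ccr6* on the plus strand at chr17:8429077-8449992 and *Cxcr3* on the minus strand at chrX:98926874-98929608. *Cx3cr1* is on the minus strand at chr9:119957811-119977400. *Ccr9* at chr9:123587557-123691089 and *Ccr2* at chr9:124016689-124028296, both on the plus strand, have no other member of the 8 between them, but flank the receptor genes *Cxcr6*, *Xcr1*, *Ccr1*, *Ccr1l1* and *Ccr3*. These 7 genes stayed below 1 TPM in all 8 libraries.

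Promoter sequences are shown for *Cxcr3* and *Cxcr4*, the genes whose levels differed between the genotypes in opposite directions. They are the 250 bases before the RefSeq transcription start, taken from RefSeq for GRCm38.p6 and placed on mm9 by an exact match, both on the minus strand. The window of *Cxcr3* is chrX:98929487-98929736, of which part lies inside the longer gene of the mm9 annotation, and that of *Cxcr4* is chr1:130488877-130489126. Capitals mark every match to TATAAA on the gene strand (TATA box) and, on either strand, to GGGCGG (GC box), CANNTG (E-box) and GCATGCG (NRF-1 core).
Cxcr3: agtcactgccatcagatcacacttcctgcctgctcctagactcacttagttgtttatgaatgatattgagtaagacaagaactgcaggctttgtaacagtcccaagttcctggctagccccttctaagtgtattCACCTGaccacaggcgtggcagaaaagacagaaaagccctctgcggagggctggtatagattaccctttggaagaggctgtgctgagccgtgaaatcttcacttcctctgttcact
Cxcr4: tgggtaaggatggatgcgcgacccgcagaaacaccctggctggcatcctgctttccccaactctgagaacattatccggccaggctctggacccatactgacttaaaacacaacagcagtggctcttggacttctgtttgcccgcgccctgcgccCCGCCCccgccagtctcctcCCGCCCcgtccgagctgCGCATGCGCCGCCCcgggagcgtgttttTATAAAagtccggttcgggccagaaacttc
The *Cxcr4* window holds a TATA box that begins 30 bases before the start, 3 GC boxes and, directly before the last of them, the NRF-1 core, which matches on either strand there. The *Cxcr3* window holds a single E-box that begins 116 bases before the start. Of 32851 RefSeq promoter windows of this length, 7.59% hold TATAAA on the gene strand, 32.7% a GC box, 66.2% an E-box and 3.02% the NRF-1 core. The *Cxcr4* window is 61.2% G and C with 19 CpG, and the *Cxcr3* window 48.0% with 3 CpG, against medians of 52.4% and 6 over all windows. These matches describe letters and are not evidence of binding. Promoter windows of 6 of the 8 genes were found in the RefSeq table, and those of *Cxcr5* and *Ccr7* were not.

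*Cxcr4*, *Cxcr5* and *Ccr7* were expressed in every library of all 3 groups, *Cxcr3* exceeded 2.02 TPM in *Pax5*-/- libraries only, and *Ccr2*, *Ccr6*, *Ccr9* and *Cx3cr1* stayed below 1 TPM everywhere. In wild-type pro-B cells, the order of mean levels was *Cxcr4*, *Cxcr5*, *Ccr7* and *Cxcr3*. The ranges of *Cxcr5* and *Ccr7* overlapped, whereas *Cxcr4* lay above *Cxcr5* and *Ccr7* above *Cxcr3* in every pair of libraries. In *Pax5*-/- cells the order of these 4 genes was the same, but the range of *Cxcr3* enclosed that of *Ccr7* and overlapped that of *Cxcr5*, and *Cxcr5* lay just above *Ccr7* without overlap.

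**Figure D1:**
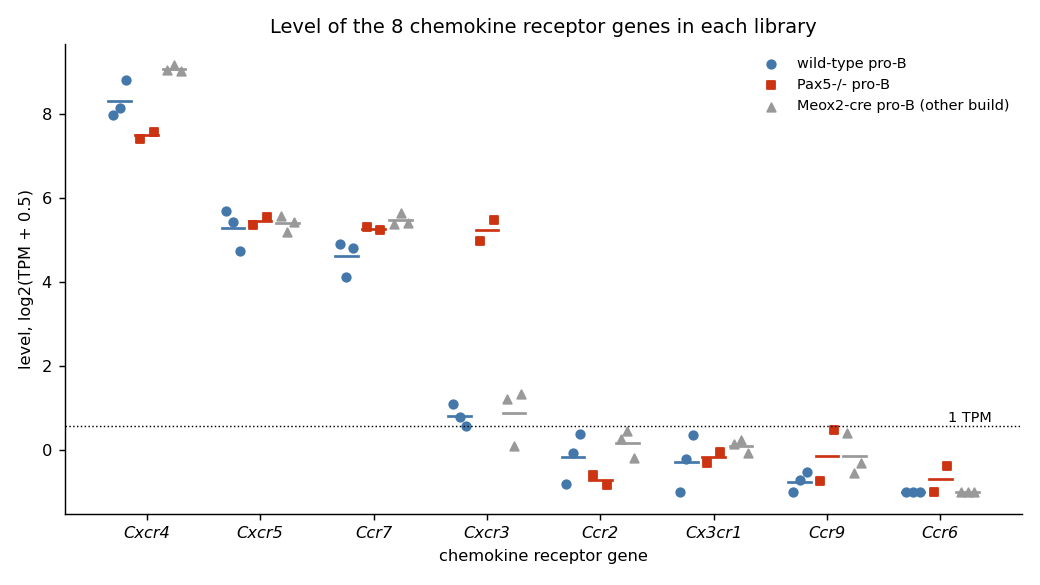
Level of each chemokine receptor gene on a log2(TPM + 0.5) axis in 3 wild-type, 2 *Pax5*-/- and 3 Meox2-cre pro-B libraries, with a point per library and a line at the group mean of the log2 values. *Cxcr3* sits between 30.9 and 44.4 TPM in *Pax5*-/- libraries and at or below 2.02 TPM in all others, and 4 genes stay below the dotted line at 1 TPM.

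The comparison of *Pax5*-/- with wild-type cells was tested where a gene's mean exceeded 1 TPM in wild-type or *Pax5*-/- libraries, a filter that 4 of the 8 receptor genes passed. Of these, *Cxcr3* was higher and *Cxcr4* lower at an adjusted p below 0.05, and *Cxcr5* and *Ccr7* did not pass. Across all 12066 genes tested, 15.6% were higher and 21.5% lower at this threshold, so 2 of 4 is to be read against 37.1% in either direction, as are the counts of the related gene lists below. Of 13 pro-B and sort markers, 1 was higher and 9 were lower, *Cd2* among the latter passing the filter only through the wild-type mean. A gene that passed the filter only through the genotype where it was high was favoured to differ, and no p-value is given for such genes. *Cxcr3* alone met the call rule of the study's methods, a change of more than 3-fold with a mean above 5 TPM, which 6.17% of all genes tested met, 2.83% as higher and 3.34% as lower in *Pax5*-/- cells. An exact permutation test of 3 against 2 libraries allows 10 splits, and 0.1 is the smallest two-sided p it can give. That test gave 0.1 for *Cxcr3*, 0.2 for *Cxcr4* and *Ccr7* and 0.9 for *Cxcr5*.

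*Cxcr3*, the receptor for the interferon-induced chemokines Cxcl9, Cxcl10 and Cxcl11 that is best known from effector T cells and NK cells, showed the largest difference of the 8 genes. The wild-type libraries had 1.65, 1.24 and 0.989 TPM, and *Pax5*-/- replicates 1 and 2 had 30.9 and 44.4 TPM. Both *Pax5*-/- libraries were far above all wild-type libraries, and in bulk RNA more cells that express a gene and more RNA per cell cannot be told apart. The log2 fold change was 4.40 (SE 0.25, 95% interval 3.81 to 5.00, limma adjusted p = 2.7e-05), a 21.2-fold increase on the log2(TPM + 0.5) scale. The ratio of mean TPM was 29.1, since the pseudocount of 0.5 is large beside the wild-type level. Only 22 of the 12066 genes tested had a larger increase. The adjusted p of *Cxcr3* was between 8.5e-06 and 0.0050 over the 14 tests with other settings or without a library.

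Marker genes of other cell types differed in direction, some rising like *Cxcr3* and some falling. Their part in the difference of *Cxcr3* was not tested. Of 6 markers of NK and innate lymphoid cells, 3 were tested: *Nkg7*, a granule gene, rose from 1.71, 5.35 and 5.12 TPM to 17.9 and 22.7 TPM (log2 fold change 2.31, limma adjusted p = 0.0049), *Klrb1c* fell from 2.02, 8.78 and 6.04 TPM to 1.07 and 1.25 TPM (adjusted p = 0.035), and *Klrd1* did not pass. *Ncr1*, which defines NK cells, was at 0 in both *Pax5*-/- libraries. The 6 genes summed to 4.63 to 16.3 TPM in wild-type and 20.7 and 26.4 TPM in *Pax5*-/- libraries. *Nkg7* alone made up 17.9 and 22.7 TPM of the latter sums.

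Of 6 T cell markers, *Cd3e*, which encodes a chain of the T cell receptor complex, was at 0 in both *Pax5*-/- libraries, and *Cd3d*, *Cd3g* and *Cd8a* stayed at or below 0.431 TPM there. *Cd4* was at 0.368, 0.522 and 0.712 TPM in wild-type and at 3.97 and 5.88 TPM in *Pax5*-/- libraries and passed the filter only through the latter, and *Cd5* fell from 7.08 to 12.2 TPM to 2.94 and 3.01 TPM (adjusted p = 0.0066). The T cell list summed to 8.77 to 13.2 TPM in wild-type and 7.26 and 9.77 TPM in *Pax5*-/- libraries. Of 6 markers of plasmacytoid dendritic cells, *Irf7* and *Cox6a2* rose, whereas *Bst2* and *Ly6c2* did not pass. *Klk1* was at 0.145, 0.425 and 0.279 TPM in wild-type and at 0 in both *Pax5*-/- libraries. The list summed to 98.5 to 158 TPM in wild-type and 206 and 308 TPM in *Pax5*-/- libraries. *Bst2* alone was at 83.0 to 123 TPM and at 120 and 163 TPM in these libraries. *Siglech*, which defines these cells and passed the filter only through the *Pax5*-/- mean, was at 0.106, 0.570 and 1.12 TPM in wild-type and at 1.79 and 9.06 TPM in *Pax5*-/- libraries, and *Cox6a2* carries a mark for overlap with another gene. Of the *Pax5*-/- libraries, replicate 2 had the higher *Siglech* and also the higher *Cxcr3* (44.4 against 30.9 TPM). In Meox2-cre replicates 1, 2 and 3, *Siglech* was at 3.79, 0.605 and 1.12 TPM and *Cxcr3* at 1.85, 0.574 and 2.02 TPM.

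Since *Cxcr3* lies on the X chromosome, sex-linked genes were looked at after its value was seen. *Xist*, the X-inactivation transcript of female cells, was at 4.32, 0 and 0.0615 TPM in wild-type, 14.2 and 7.60 TPM in *Pax5*-/- and 1.87, 9.01 and 8.88 TPM in Meox2-cre libraries. The 4 Y-linked genes *Ddx3y*, *Eif2s3y*, *Kdm5d* and *Uty* were present in all 8 libraries. In the Meox2-cre libraries, *Cxcr3* was at 1.85 TPM in replicate 1, at 0.574 TPM in replicate 2 and at 2.02 TPM in replicate 3. The part of the sex of the mice in the difference of *Cxcr3* was not tested.

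*Cxcr4*, the receptor for Cxcl12, was the most abundant of the 8 genes in every library. It was at 252, 284 and 444 TPM in wild-type and at 169 and 191 TPM in *Pax5*-/- libraries. The groups did not overlap, but wild-type replicate 3 stood well above the other wild-type libraries. Of all genes tested, 63.4% did not overlap between the genotypes, and 37.4% were lower without overlap. *Cxcr4* fell by 0.81 on the log2 scale (SE 0.22, 95% interval -1.34 to -0.29, limma adjusted p = 0.025), and 13.7% of the genes tested fell by more. Without wild-type replicate 3, *Cxcr4* fell by 0.57 with an adjusted p of 0.011. The call was lost without either *Pax5*-/- library (limma adjusted p = 0.193 without replicate 1 and 0.147 without replicate 2), without a filter on low values (0.063) and without the intensity trend (0.062).

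*Ccr7*, the receptor for Ccl19 and Ccl21, was at 29.6, 16.9 and 27.4 TPM in wild-type and at 39.1 and 37.1 TPM in *Pax5*-/- libraries. Both *Pax5*-/- values were above all wild-type values, of which replicate 2 was the lowest. The log2 difference of 0.66 (SE 0.23, 95% interval 0.11 to 1.20) did not pass the threshold (limma adjusted p = 0.061), and 26.1% of all genes tested were higher without overlap. It passed after rescaling by median ratios (adjusted p = 0.039), after quantile normalization (0.042) and without wild-type replicate 1 (0.033). Without wild-type replicate 2 the log2 difference was 0.41 (adjusted p = 0.065), and without *Pax5*-/- replicate 1 or 2 the adjusted p was 0.28 or 0.26.

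*Cxcr5*, the receptor for the follicular chemokine Cxcl13, was at 50.8, 42.3 and 26.4 TPM in wild-type and at 40.4 and 46.0 TPM in *Pax5*-/- libraries. The wild-type libraries enclosed both *Pax5*-/- values, and the widest gap was between wild-type libraries. The log2 difference was 0.16 (SE 0.25, 95% interval -0.43 to 0.76, limma adjusted p = 0.64), so an increase of up to 1.69-fold or a decrease to 0.741 of the wild-type level lies within its interval. Its sign turned without wild-type replicate 3 (-0.10). Of 6 mature B cell markers, 3 were tested and lower in *Pax5*-/- cells, *Ms4a1* passing the filter only through the wild-type mean, and *Cd22* was at 31.3 to 77.4 TPM in wild-type and at 11.5 and 12.6 TPM in *Pax5*-/- libraries. This list summed to 70.9 to 149 TPM and to 35.0 and 34.1 TPM, and its part in the levels of *Cxcr5* and *Ccr7* was not tested.

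**Figure D2:**
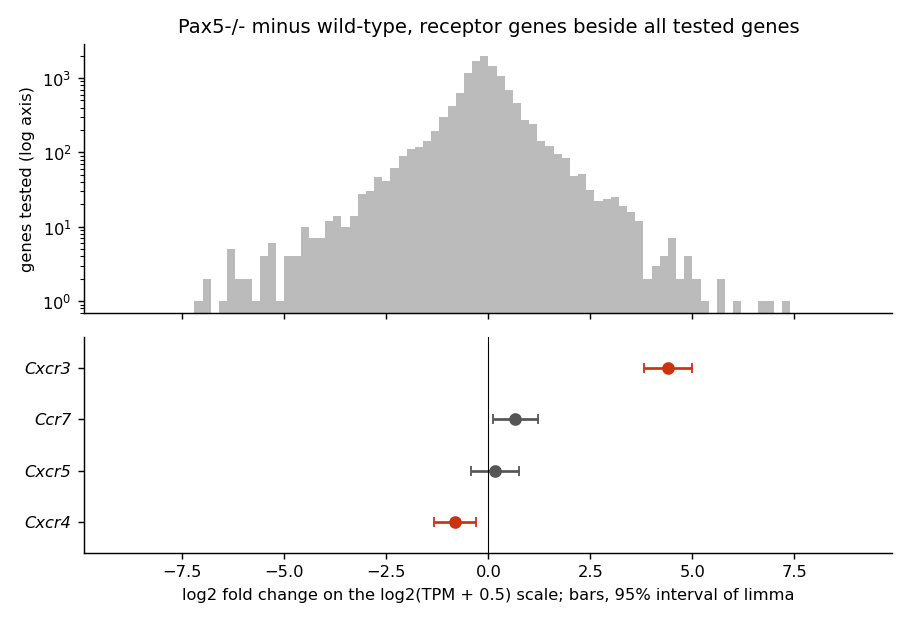
Upper panel, number of genes on a log axis at each log2 fold change between *Pax5*-/- and wild-type cells, for the 12066 genes tested. Lower panel, the 4 receptor genes tested, with their 95% intervals and in red those with an adjusted p below 0.05: *Cxcr3* at 4.40 lies in the right tail, and *Cxcr4* at -0.81, *Cxcr5* at 0.16 and *Ccr7* at 0.66 lie within the bulk.

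Seen as shares, *Cxcr4* made up 75.4%, 82.2% and 88.7% of the summed TPM of the 8 genes in the wild-type libraries and 60.4% and 59.6% in *Pax5*-/- cells. The share of *Cxcr3* was 0.198% to 0.495% in wild-type and 11.0% and 13.9% in *Pax5*-/- libraries. The sum itself was 334, 345 and 500 TPM in wild-type and 281 and 320 TPM in *Pax5*-/- libraries. *Cxcr4* mRNA thus exceeded that of *Cxcr3* by 153 to 449 times in wild-type and by 5.49 times in replicate 1 and 4.3 times in replicate 2 of the *Pax5*-/- libraries. The ratio of *Cxcr4* to *Cxcr5* varied from 4.96 to 16.8 among wild-type libraries, and its lowest value was still above the 4.19 and 4.15 of the *Pax5*-/- libraries.

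**Figure D3:**
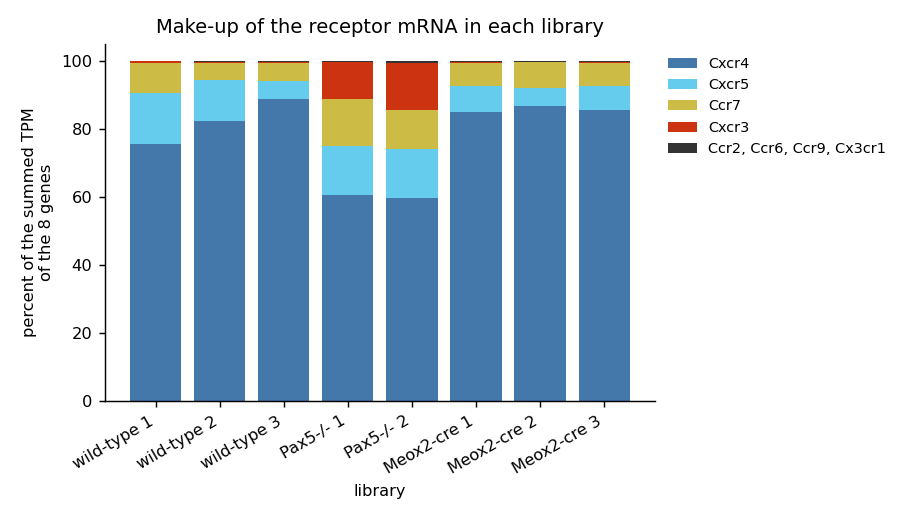
Stacked bars give the percent of the summed TPM of the 8 chemokine receptor genes that each gene took in each library. *Cxcr4* takes 75.4% to 88.7% in the wild-type libraries and 59.6% to 60.4% in the *Pax5*-/- libraries, where *Cxcr3* takes 11.0% and 13.9%.

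The genes with the most similar level profile, by the root mean square difference of log2(TPM + 0.5) over the 5 libraries, were *Ets1* (0.24) and *Sae1* (0.26) for *Cxcr4*. *Ets1*, which encodes a transcription factor, was at 295, 335 and 371 TPM in wild-type and at 156 and 155 TPM in *Pax5*-/- libraries. For *Cxcr3* they were *Htra3* (0.36) and *Grrp1* (0.45), and for *Ccr7* *Alg5* (0.13) and *Eif1a* (0.14). Of the genes nearest to *Cxcr5*, *Cd74* (0.11) is given here. *Htra3*, a secreted protease gene, was at 1.06 to 1.25 TPM in wild-type and at 30.1 and 26.5 TPM in *Pax5*-/- libraries. *Grrp1* was at 0.499 to 1.76 TPM in wild-type and at 43.7 and 43.1 TPM in *Pax5*-/- libraries. *Cd74* was at 48.8, 42.0 and 25.9 TPM in wild-type and at 36.2 and 51.5 TPM in *Pax5*-/- libraries, and it shared the low wild-type replicate 3 of *Cxcr5*. The profile of *Cd74*, which encodes the invariant chain of MHC class II, is of an entry marked for overlap with another gene.

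*Ccr2*, *Ccr9*, *Cx3cr1* and *Ccr6* were below 1 TPM in all libraries and were not tested. At these levels the depth, which differed between the *Pax5*-/- libraries, limits what can be seen, and a listing at 0 does not show absence. *Ccr6*, the receptor for Ccl20 on mature B cells, was listed at 0 in all libraries except *Pax5*-/- replicate 2, with 0.276 TPM. *Ccr9*, the receptor for Ccl25 and a marker of gut-homing lymphocytes and plasmacytoid dendritic cells, was at 0, 0.113 and 0.195 TPM in wild-type and at 0.101 and 0.896 TPM in *Pax5*-/- libraries. In the Meox2-cre libraries it was at 0.841, 0.184 and 0.316 TPM. *Pax5*-/- replicate 2 and Meox2-cre replicate 1 had the highest *Ccr9* of their tables and also the highest *Siglech* (9.06 and 3.79 TPM). Within each group the libraries had the same order for *Ccr9* and *Siglech*, and the part of other cells in this level was not tested.

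*Ccr2*, the receptor for Ccl2 on monocytes, was at 0.0706, 0.450 and 0.818 TPM in wild-type, 0.165 and 0.0685 TPM in *Pax5*-/- and 0.697, 0.869 and 0.387 TPM in Meox2-cre libraries. The myeloid gene *S100a8* was at 2.26, 58.3 and 38.4 TPM, at 0 and 9.41 TPM, and at 167, 401 and 108 TPM in the same libraries. Wild-type replicate 1 was thus lowest in its group for both genes, and the Meox2-cre libraries had the same order, whereas wild-type replicates 2 and 3 and the *Pax5*-/- libraries had opposite orders for the 2 genes. The 8 myeloid entries of the mm9 tables summed to 46.0 to 253 TPM in wild-type and 55.4 and 83.7 TPM in *Pax5*-/- libraries. In Meox2-cre libraries the list summed to 443 to 1224 TPM. *Elane* and *Itgam* were lower in *Pax5*-/- cells. *Mpo* went the other way without passing, from 11.1, 34.5 and 19.0 TPM in wild-type to 37.8 and 42.1 TPM in *Pax5*-/- libraries. The part of this list in the level of *Ccr2* was not tested. *Cx3cr1*, the fractalkine receptor of monocytes and NK cells, was at 0, 0.364 and 0.783 TPM in wild-type and at 0.316 and 0.480 TPM in *Pax5*-/- libraries, and at 0.463 to 0.677 TPM in Meox2-cre libraries. Its order among the wild-type libraries was that of *Ccr2*. In a fit without a filter on low values, which held 17368 genes, none of these 4 genes passed, with adjusted p between 0.27 and 0.84.

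**Figure D4:**
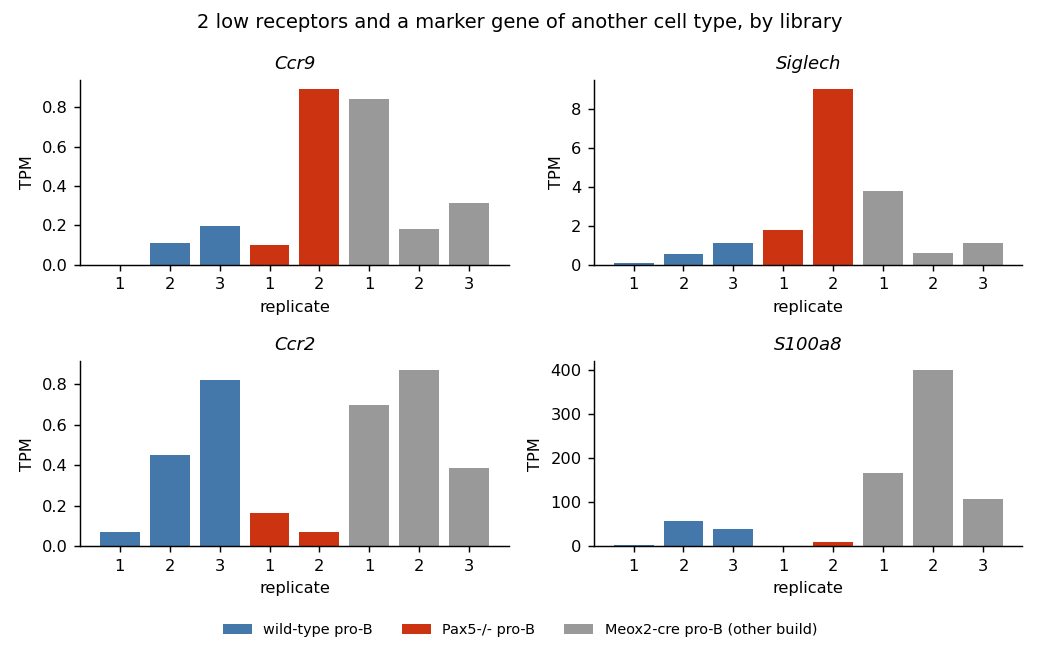
Level in TPM of the low receptor genes *Ccr9* and *Ccr2* beside *Siglech*, a marker of plasmacytoid dendritic cells, and *S100a8*, a myeloid marker, with a bar for each library. *Pax5*-/- replicate 2 has the highest bar for *Ccr9* (0.896 TPM) and *Siglech* (9.06 TPM), and Meox2-cre replicate 2 the highest for *Ccr2* (0.869 TPM) and *S100a8* (401 TPM).

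The Meox2-cre libraries were aligned to another build with other software, so their levels are set beside the others without a test. *Cxcr4* was at 530, 569 and 521 TPM, which is 540 ± 25.4 TPM (SD, n = 3) against 327 ± 103 TPM (SD, n = 3) in wild-type pro-B cells. Its replicates varied by 4.70% (coefficient of variation), compared with 31.5% among the wild-type libraries. *Ccr7* was at 41.4, 49.6 and 41.9 TPM and *Cxcr5* at 47.4, 35.9 and 42.3 TPM, and these ranges overlapped. *Cxcr3* averaged 1.48 ± 0.789 TPM (SD, n = 3), close to the 1.29 ± 0.336 TPM (SD, n = 3) of wild-type cells. *Ccr6* was listed at 0 in all 3 libraries. *Cxcr4* took 85.1% to 86.6% of the summed TPM of the 8 genes, within the range of the wild-type libraries.

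Among 16 other chemokine receptor genes, none reached 5 TPM in any library, and only 3 were tested. *Ackr4*, a scavenging receptor whose entry overlaps another gene, was at 0.360, 0.530 and 0.406 TPM in wild-type and at 1.12 and 2.22 TPM in *Pax5*-/- libraries, and passed the filter only through the latter. *Darc*, also known as *Ackr1* and expressed on red blood cell precursors, was at 0.437, 1.61 and 2.11 TPM in wild-type and at 0 and 0.071 TPM in *Pax5*-/- libraries, and passed the filter only through the former. Of 3 erythroid entries tested, 2 were lower in *Pax5*-/- cells, against 21.5% over all genes. *Epor*, 1 of them, was at 2.91 to 11.0 TPM in wild-type and at 1.86 and 0.717 TPM in *Pax5*-/- libraries. The erythroid list summed to 65.0 to 163 TPM in wild-type and 55.0 and 4.53 TPM in *Pax5*-/- libraries. *Alas2* alone was at 51.2 to 117 TPM and at 48.0 and 2.73 TPM in these libraries. It did not pass, and its entry is marked for overlap with another gene. The part of erythroid cells in the level of *Darc* was not tested. *Ccrl2* was at 1.68 to 3.48 TPM in wild-type and at 2.67 and 3.96 TPM in *Pax5*-/- libraries and did not pass.

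Most ligand genes of the 8 receptors were listed at 0. Of 19 entries for 15 ligand genes in the mm9 tables, 14 were at 0 in all 5 libraries and 2 were tested. *Ccl19*, *Ccl21a* and *Ccl21b* had more than 1 entry each, marked as duplicates and all among those at 0. *Cxcl12*, the ligand of Cxcr4, was at 0.937, 0.988 and 1.57 TPM in wild-type and at 0.145 and 0.172 TPM in *Pax5*-/- libraries, and passed the filter only through the former. *Ccl25*, the ligand of Ccr9, was at 3.31 to 6.44 TPM in wild-type and 3.14 and 2.12 TPM in *Pax5*-/- libraries (adjusted p = 0.115). The ligands of Cxcr3 were at or below 0.226 TPM in wild-type and *Pax5*-/- libraries.

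Downstream of the receptors, 15 of 16 genes for G protein subunits and effectors were tested, of which 2 were higher, 1 was lower and 12 did not pass, against 37.1% past the threshold over all genes (median log2 fold change -0.21, against -0.12 over all genes tested). *Pik3r5* and *Pik3r6*, the regulatory subunits of the phosphoinositide 3-kinase that G protein beta-gamma subunits activate, rose from 23.0 to 30.8 TPM to 49.7 and 57.02 TPM (log2 fold change 1.02, limma adjusted p = 0.0024) and from 20.2 to 23.2 TPM to 50.3 and 49.2 TPM (1.17, adjusted p = 4.5e-04). *Gnb1*, a beta subunit, fell from 231 to 278 TPM to 153 and 161 TPM (-0.67, adjusted p = 0.0033).

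Of 8 RGS genes tested, 4 were higher, against 15.6% over all genes, 1 was lower, against 21.5%, and 3 did not pass (median log2 fold change 0.25). *Rgs1*, counted among the 4, was at 0, 0.280 and 0.368 TPM in wild-type and at 2.23 and 3.14 TPM in *Pax5*-/- libraries and passed the filter only through the latter. *Rgs10* rose from 6.80, 14.9 and 11.9 TPM to 43.2 and 35.6 TPM and *Rgs18* from 1.43, 2.74 and 3.16 TPM to 7.41 and 9.39 TPM (limma adjusted p = 0.0032 and 0.0061). *Rgs14* fell from 17.7 to 20.2 TPM to 11.1 and 11.8 TPM (adjusted p = 0.0079). Rgs1, Rgs10 and Rgs18 are known as accelerators of GTP hydrolysis on Gi proteins.

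All 7 receptor kinase and arrestin genes were tested, and 2 were higher, 1 was lower and 4 did not pass, close to the 37.1% over all genes (median -0.15). *Arrb1* and *Arrb2*, which encode the beta-arrestins, rose from 21.7 to 29.6 TPM to 48.9 and 43.1 TPM and from 105 to 109 TPM to 145 and 143 TPM (limma adjusted p = 0.010 for both), the latter entry marked for overlap with another gene. *Adrbk1*, the receptor kinase also known as *Grk2*, fell from 1064 to 1163 TPM to 854 and 816 TPM (adjusted p = 0.014). Of 18 regulators of small GTPases and cell migration, all tested, 4 were lower, close to the 21.5% over all genes, none was higher and 14 did not pass (median -0.15). *Stk4*, a kinase required for lymphocyte adhesion and migration, fell from 186 to 200 TPM to 106 and 105 TPM (log2 fold change -0.85, adjusted p = 4.9e-04). *Rasgrp2*, the exchange factor of Rap1, fell by 0.60 and *Rhoa* by 0.36 on the log2 scale (adjusted p = 0.0044 and 0.016).

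**Figure D5:**
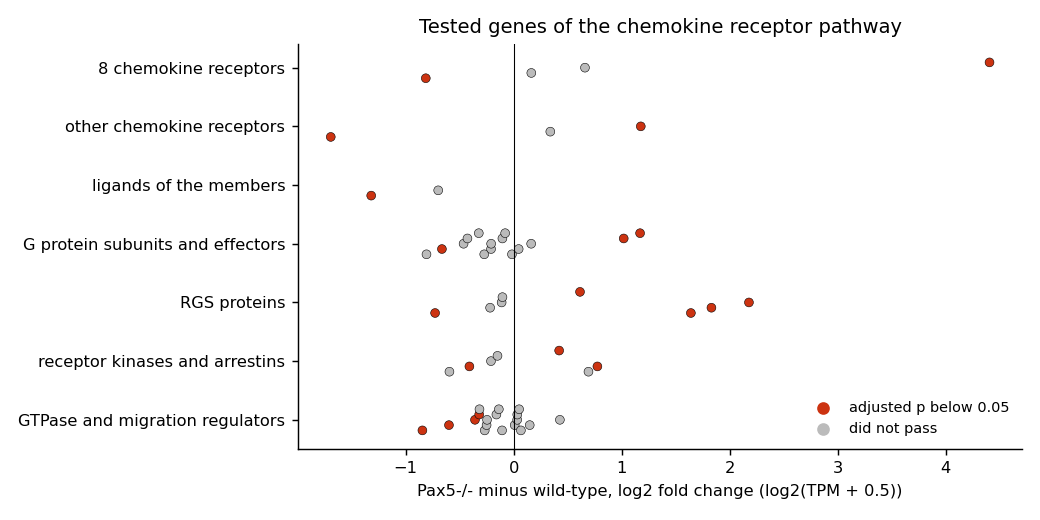
Log2 fold change between *Pax5*-/- and wild-type cells for each tested gene of the 8 chemokine receptors and 6 lists of related genes, with a point per gene, in red where the adjusted p was below 0.05. *Cxcr3* at 4.40 lies apart from the other tested genes of the pathway, which lie between -1.69 and 2.18.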

How the data were processed

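RNA-seq of sorted pro-B cells was analysed from 3 wild-type, 2 *Pax5*-/- and 3 Meox2-cre libraries. The authors removed ribosomal RNA reads, counted reads per gene with featureCounts 1.5.0 and deposited TPM values, which are scaled to gene length and to an equal sum per library. They aligned the wild-type and *Pax5*-/- reads to mm9 with TopHat 1.4.1a, using a modified refGene annotation, and the Meox2-cre reads to mm10 with STAR 2.4.2a, in paired-end mode according to the methods and as single-end reads according to the sample list. Their own calls came from counts, which are not used here.

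Entries were matched by symbol. Differences between 3 wild-type and 2 *Pax5*-/- libraries were fitted on log2(TPM + 0.5) by limma 3.58.1 in R 4.3.3, with trended eBayes, for entries with a mean above 1 TPM in a genotype, with Benjamini-Hochberg adjustment over all 12066. Fold changes on this scale understate the change of low genes. Exact permutation tests used scipy 1.17.1. The receptor genes, lists and markers were chosen with earlier results of these data known. Of each list, up to 3 genes per direction were named, ranked by size of change among those with an adjusted p below 0.05, other genes being chosen after their values were seen, and a few genes that this rule names are not reported here. Likeness was measured over 5 libraries. The gene *Ly6g* and the ligand gene *Ccl21c* had no entry matched in the mm9 tables. Coordinates are from GENCODE on mm9. Replicate numbers follow the order of the samples and pair nothing. Alternatives were pseudocounts of 0.1 and 1, no filter or 5 TPM, eBayes without trend or robust, median ratios, quantile normalization, immunoglobulin and T cell receptor entries taken out, each library left out, a 2-fold threshold, limma treat and the ratio of mean TPM. The ChIP-seq samples were not analysed here.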

Additional observations from a re-analysis of the deposited data

How the results depend on the processing

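Over the other settings, the log2 fold change of *Cxcr3* lay between 4.06 and 4.86, the latter as the ratio of mean TPM, and it met the 3-fold call in every refit, limma treat against 3-fold included. *Cxcr4* stayed lower in all 15 settings (-0.98 to -0.57), and *Ccr7* stayed higher (0.41 to 0.81). *Cxcr4* lost its call, leaving 0 receptor genes lower, without a filter on low values and with eBayes without trend. *Ccr7* passed, making 2 receptor genes higher, with quantile normalization and with median ratios. Without single libraries, 1 to 2 receptor genes were higher and 0 to 1 lower. *Ccr7* passed without wild-type replicate 1, and *Cxcr4* was lost without *Pax5*-/- replicate 1 or 2, where the remaining *Pax5*-/- library was assumed to vary like the wild-type libraries. *Cxcr5* lay between -0.10 (without wild-type replicate 3) and 0.36 (without wild-type replicate 1). Of all genes, 1885 were higher and 2596 lower, and without single libraries 704 to 1977 were higher and 825 to 3233 lower, the fewest without *Pax5*-/- replicate 2. Rescaling by median ratios moved the median of all genes from -0.12 to -0.01 on the log2 scale. No paired analysis was possible because replicates are unnumbered in the labels. The sources used here give no depth in reads, which limits what can be said of *Ccr2*, *Ccr6*, *Ccr9* and *Cx3cr1*.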
